A study of Mus musculus with 10 samples.

Results

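The members were 9 mouse genes of sperm redox chemistry: the sperm thioredoxins Txndc2, Txndc8 and Nme8, the ubiquitous thioredoxin Txn1, the thioredoxin reductases Txnrd3 and Txnrd1, the selenoprotein peroxidase Gpx4, the capsule protein Smcp and the peroxiredoxin Prdx4. They were set by name, and each was read from the array row that carried its symbol and no other, the row with the highest mean where there were several. Of the 9 members 8 had values, out of 19661 named genes with values in the table. Both Gpx4 rows were empty on every array, so Gpx4 was not analysed here. Affymetrix Mouse Gene ST arrays were hybridised with RNA of whole testis from 5 mice lacking Crem (KO, Crem-/-) and from 5 wild-type (WT) mice, with 1 mouse per array. All mice were 8 weeks old, untreated, of a cross labelled 129Pas x C57Bl/J and killed at lights on, and the KO mice carried a germline disruption of Crem, so that every cell of the testis was affected. Levels are log2 values, on which a difference of 1 is a doubling of signal.

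Crem encodes a transcription factor of the cyclic AMP response, whose activator form appears in spermatids after meiosis and binds cAMP response elements (CRE) in promoters. Late in spermatid development nuclear proteins are replaced by protamines, the mitochondria are wound around the flagellum in a sheath, and both structures are then stiffened by disulfide bonds. Thioredoxins reduce and exchange such bonds, thioredoxin reductases recharge them, and glutathione peroxidases and peroxiredoxins use thiols to remove peroxides. In rodent sperm the capsule around the mitochondria is built largely of oxidised Gpx4 and cysteine-rich Smcp.

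The reference promoters of the members are shown for Txndc8, Txndc2, Smcp and Prdx4, the members that were lower in KO testis, and for Txn1, which was higher and is the annotated coding neighbour of Txndc8 on chromosome 4. Each is the 250 bases before an annotated start, 5′ to 3′, from RefSeq (build GRCm38.p6). Capitals mark a match to the CRE TGACGTCA with 1 mismatch or to its core TGACG, searched on both strands.
Txndc8, chr4:58009127-58009376, minus strand: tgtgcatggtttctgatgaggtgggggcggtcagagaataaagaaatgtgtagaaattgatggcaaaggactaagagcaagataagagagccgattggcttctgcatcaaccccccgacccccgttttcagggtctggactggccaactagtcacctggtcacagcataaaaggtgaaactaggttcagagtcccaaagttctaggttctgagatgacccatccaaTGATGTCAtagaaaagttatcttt
Txn1, chr4:57956412-57956661, minus strand: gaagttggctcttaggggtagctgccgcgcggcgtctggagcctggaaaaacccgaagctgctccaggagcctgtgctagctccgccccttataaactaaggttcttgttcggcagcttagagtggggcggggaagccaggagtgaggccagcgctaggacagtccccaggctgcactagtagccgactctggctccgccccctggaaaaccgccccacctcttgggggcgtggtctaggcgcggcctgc
Txndc2, chr17:65642205-65642454, minus strand: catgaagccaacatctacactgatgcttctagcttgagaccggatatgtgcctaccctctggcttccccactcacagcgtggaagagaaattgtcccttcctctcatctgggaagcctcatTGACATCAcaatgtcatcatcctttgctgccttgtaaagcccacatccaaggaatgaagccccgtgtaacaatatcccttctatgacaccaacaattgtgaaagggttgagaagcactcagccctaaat
Smcp, chr3:92589074-92589323, minus strand: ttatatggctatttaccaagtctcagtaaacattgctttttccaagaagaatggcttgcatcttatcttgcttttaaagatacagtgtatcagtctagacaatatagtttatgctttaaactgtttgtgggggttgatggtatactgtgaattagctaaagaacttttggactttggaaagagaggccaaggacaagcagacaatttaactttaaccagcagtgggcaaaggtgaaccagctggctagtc
Prdx4, chrX:155338461-155338710, minus strand: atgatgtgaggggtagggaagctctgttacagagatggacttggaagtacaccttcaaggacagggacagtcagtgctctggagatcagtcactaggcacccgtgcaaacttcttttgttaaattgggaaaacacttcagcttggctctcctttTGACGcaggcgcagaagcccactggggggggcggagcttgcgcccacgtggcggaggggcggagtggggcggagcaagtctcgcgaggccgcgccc

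All 9 members had windows in the reference, 15 in all, and 0 of the 15 held the full CRE, against 1.55% of 32817 windows of that length over all genes. A CRE with 1 mismatch was present in 9.28% of all windows and the core in 17.7%, and the core is part of the full CRE. The Txndc8 window held TGATGTCA starting 24 bases before the start (-24), a C4T substitution counted from 1 at the first base of the CRE. The window printed for Txndc2, the member's second, held TGACATCA at -129 (G5A), and its other window held no match. Prdx4 held the core TGACG with no longer match, at -96. The windows of Smcp, Txn1, Nme8 and Txnrd3 held none of these letters. Txnrd1 held TGATGTCA at -136 (C4T) in 1 window, and an overlapping pair of Gpx4 windows shared AGACGTCA (T1A), which holds the core on the minus strand. Another Gpx4 window held the core alone, at -36. The starts used for Txndc2 and Prdx4 lie inside the annotated genes, so other promoters of these genes are not covered. A match is a description of letters and not a binding site.

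Array medians lay between 7.108 and 7.151, and Pearson's r across features was 0.9919 to 0.9954 within a genotype and 0.936 to 0.952 between genotypes. The arrays were labelled with 4 batches, of which only batch 2 (1 KO array, 3 WT arrays) and batch 4 (3 KO arrays, 1 WT array) contained both genotypes. KO replicate 2 made up batch 1 and WT replicate 4 made up batch 3. Crem itself averaged 9.24 ± 0.15 in KO and 10.95 ± 0.06 in WT testis (SD, n = 5 each), in the direction of the labels. Markers of elongating spermatids (Prm1, Prm2, Tnp1, Tnp2, Odf1, Akap4) were lower in 6 of 6 cases with a median change of −5.16. Their mean level was 7.34 to 9.83 in KO and 13.04 to 13.34 in WT arrays, and KO replicates 2 and 3 stood highest among the KO arrays at 9.75 and 9.83. Of 5 round spermatid markers 4 were lower, with a median change of −0.68 and single changes from −4.29 to 0.15. Their mean level was 9.92 to 10.09 in KO and 11.45 to 11.59 in WT arrays. Of 5 spermatocyte markers 1 was lower and 2 were higher, with mean levels of 10.3 to 10.44 in KO and 10.25 to 10.36 in WT arrays. In whole testis, fewer cells of a type and less RNA per cell cannot be told apart.

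The members did not move together in KO testis. Txndc8, Txndc2, Smcp and Prdx4 were down-regulated, Txn1, Txnrd3 and Txnrd1 were up-regulated by less, and Nme8 did not pass the test (limma, adjusted p under 0.05 over 25689 features). Of the 8 measured members 4 were lower, against 12.4% of all features, and 3 were higher, against 27.9%. All of the 4 lower members had fallen by at least 1 on the log2 scale, a size that 3.96% of all features reached. Every KO array lay below every WT array for 4 members (9.89% of all features), and every KO array lay above every WT array for 1 member (19.5% of all features). The median change was −0.87 over the members and 0.05 over all features. Of 7 measured reference genes of the study's qPCR 1 was lower and 4 were higher. Centring the arrays on them moved the median of all features by −0.20 and gave 8249 features lower and 2227 higher, against 3181 lower and 7160 higher without it. Under that centring the 3 rises of the members were reduced to 1, that of Txn1.

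**Figure D1:**
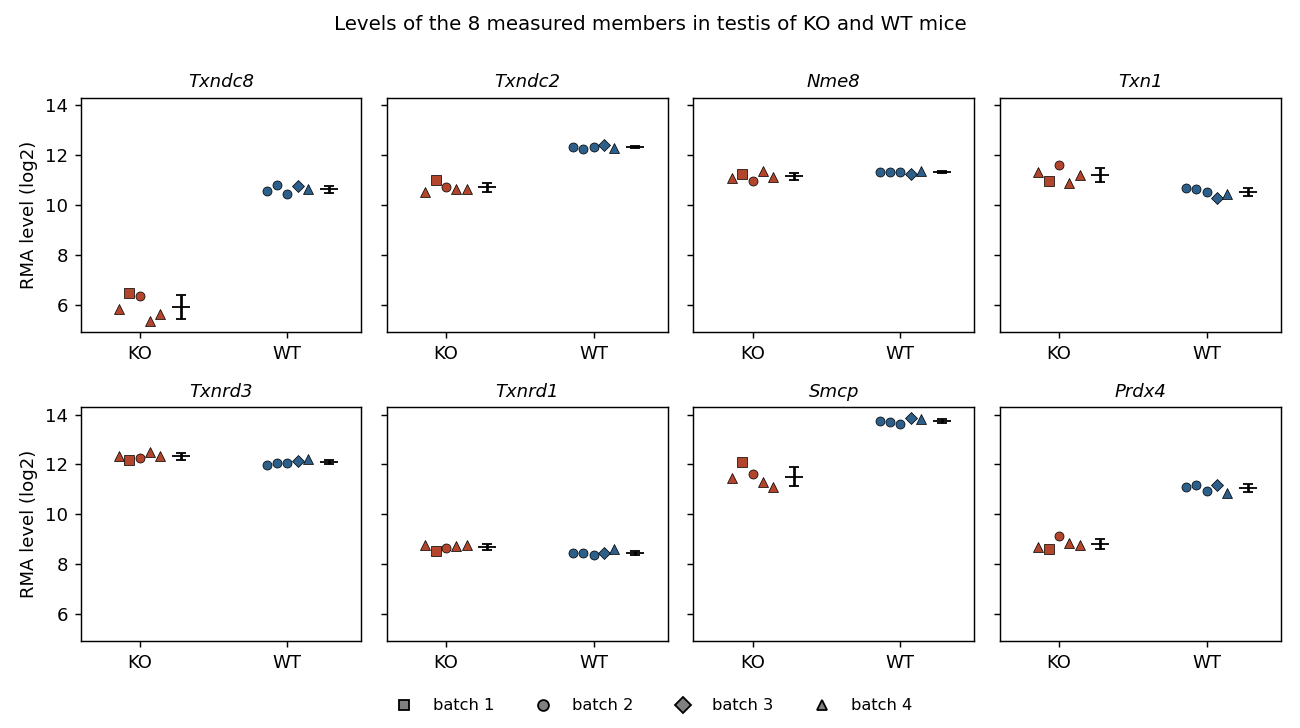
RMA level (log2) of the 8 measured members in each array, KO on the left and WT on the right of each panel, with symbols for the batches and a bar for the mean ± SD (n = 5 each). Txndc8, Txndc2, Smcp and Prdx4 lie lower in every KO array than in any WT array, Txn1 lies higher in every KO array, and Nme8, Txnrd3 and Txnrd1 overlap.

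Txndc8 (Sptrx3), a thioredoxin of the spermatid Golgi and forming acrosome, showed the deepest change among the measured members. Its level was 5.83, 6.46, 6.35, 5.33 and 5.63 in KO replicates 1 to 5, against 10.56, 10.81, 10.46, 10.75 and 10.63 in WT replicates 1 to 5. The groups lay far apart, and KO replicates 2 and 3, which were also highest in elongating spermatid markers, were the highest KO arrays. The change was −4.72 (SE 0.18, 95% interval −5.11 to −4.33), a 26.4-fold lower signal (limma, adjusted p = 8.7e-11). It was −4.26 in batch 2 and −5.03 in batch 4. The KO mean of 5.92 stood at the 24.6 percentile of all values on the arrays, where probe background can make up much of a signal, and its share in that level was not tested.

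Txndc2 (Sptrx1), a thioredoxin of the fibrous sheath of the sperm tail, fell less. KO arrays measured 10.53, 11.01, 10.74, 10.65 and 10.66, against 12.32, 12.25, 12.32, 12.39 and 12.30 in WT arrays. The groups did not overlap, and the highest KO array was again replicate 2. The change was −1.60 (SE 0.08, 95% interval −1.77 to −1.42), a 3.03-fold lower signal (limma, adjusted p = 1.7e-09), with −1.56 in batch 2 and −1.69 in batch 4.

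Nme8 (Sptrx2), which joins a thioredoxin domain to nucleoside diphosphate kinase domains and is found in the sperm fibrous sheath and in cilia, had overlapping groups. It was measured at 11.10, 11.23, 10.98, 11.36 and 11.14 in KO arrays, against 11.32, 11.32, 11.33, 11.24 and 11.35 in WT arrays. KO replicate 4 was the highest of all 10 arrays, and the other KO arrays lay below every WT array. The difference was −0.15 (SE 0.07, 95% interval −0.30 to 0.00; limma, adjusted p = 0.106). Without KO replicate 4 it was −0.20 and called (limma, adjusted p = 0.0263). With centring on the reference genes it was −0.35 and called as well (limma, adjusted p = 0.0106).

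Txn1, the thioredoxin of the cytosol of most cells, was the member that rose most. It was measured at 11.34, 10.96, 11.61, 10.90 and 11.22 in KO arrays, against 10.67, 10.65, 10.51, 10.28 and 10.43 in WT arrays. All KO arrays exceeded all WT arrays, with KO replicate 3 highest. The change was 0.70 (SE 0.12, 95% interval 0.43 to 0.97), a 1.62-fold higher signal (limma, adjusted p = 0.00055). It was 1.00 in batch 2, 0.73 in batch 4 and 0.50 with reference gene centring, and called in each. Markers of some cells outside the germ line moved the same way. Leydig cell markers were higher in 3 of 3 measured cases with mean levels of 10.94 to 11.77 in KO and 10.54 to 10.92 in WT arrays, and macrophage markers in 5 of 5 with 7.82 to 8.37 in KO and 7.25 to 7.35 in WT arrays. Endothelial markers were higher in 3 of 4 cases, with 7.87 to 7.96 in KO and 6.96 to 6.99 in WT arrays. Of 4 peritubular markers 1 was higher, of 4 Sertoli cell markers 1 was higher, and the only measured blood marker, Alas2, was lower at −0.68. KO replicate 3 was highest for Leydig cells and macrophages too, at 11.77 and 8.37, but that rank was not particular to them. It was also the highest KO array for spermatogonia (8.09), round spermatids (10.09), elongating spermatids (9.83), Sertoli cells (9.20) and peritubular cells (8.66). For spermatocytes KO replicate 4 was highest (10.44). The lowest KO array was replicate 4 for Txn1 and macrophages (7.82), and replicate 2 for Leydig cells (10.94). The part of cells outside the germ line in the Txn1 change was not tested.

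The thioredoxin reductases, selenoproteins that return thioredoxin to its reduced form with NADPH, changed little. Txnrd3, the testis-rich form with an added glutaredoxin domain, was measured at 12.33, 12.17, 12.25, 12.51 and 12.34 in KO arrays, against 11.99, 12.05, 12.05, 12.13 and 12.20 in WT arrays. KO replicate 2 lay within the WT range, and the other KO arrays lay above it. The change was 0.24 (SE 0.07, 95% interval 0.08 to 0.39), a 1.18-fold higher signal (limma, adjusted p = 0.016). With batch as a block it was 0.21 and not called (limma, adjusted p = 0.0544). Txnrd1, the cytosolic form, was measured at 8.78, 8.53, 8.64, 8.72 and 8.77 in KO arrays, against 8.44, 8.46, 8.35, 8.43 and 8.59 in WT arrays. Here too KO replicate 2 lay within the WT range. The change was 0.23 (SE 0.07, 95% interval 0.09 to 0.38), also a 1.18-fold higher signal (limma, adjusted p = 0.0127). In batch 2 alone the changes were of similar size but not called, at 0.22 for each reductase, as in batch 4 alone, at 0.20 for Txnrd3 and 0.17 for Txnrd1. With reference gene centring both changes were 0.03 and not called.

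Smcp, the cysteine- and proline-rich protein of the outer mitochondrial membranes of sperm, was strongly down-regulated. It was measured at 11.46, 12.10, 11.62, 11.29 and 11.10 in KO arrays, against 13.74, 13.71, 13.62, 13.86 and 13.81 in WT arrays. The groups were apart, with KO replicates 2 and 3 again the highest KO arrays. The change was −2.23 (SE 0.15, 95% interval −2.55 to −1.92), a 4.71-fold lower signal (limma, adjusted p = 2.7e-08). It was −2.07 in batch 2 and −2.53 in batch 4. Smcp was also among the genes called on these arrays that the study measured by qPCR, so its choice was not independent of the arrays. The fall of Smcp was larger in the study's own printed values, from the arrays and by qPCR, and the reason was not tested.

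Prdx4, a peroxiredoxin of the endoplasmic reticulum encoded on the X chromosome, fell by a similar amount. In mouse testis it has a second form that starts at another first exon, and a level over all probes of a transcript cannot be assigned to either form. KO arrays measured 8.69, 8.62, 9.12, 8.83 and 8.75, against 11.11, 11.19, 10.92, 11.16 and 10.85 in WT arrays. The groups did not overlap, and here KO replicate 2 was the lowest KO array and replicate 3 the highest. The change was −2.24 (SE 0.10, 95% interval −2.46 to −2.03), a 4.73-fold lower signal (limma, adjusted p = 3.7e-10), with −1.95 in batch 2 and −2.09 in batch 4.

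**Figure D2:**
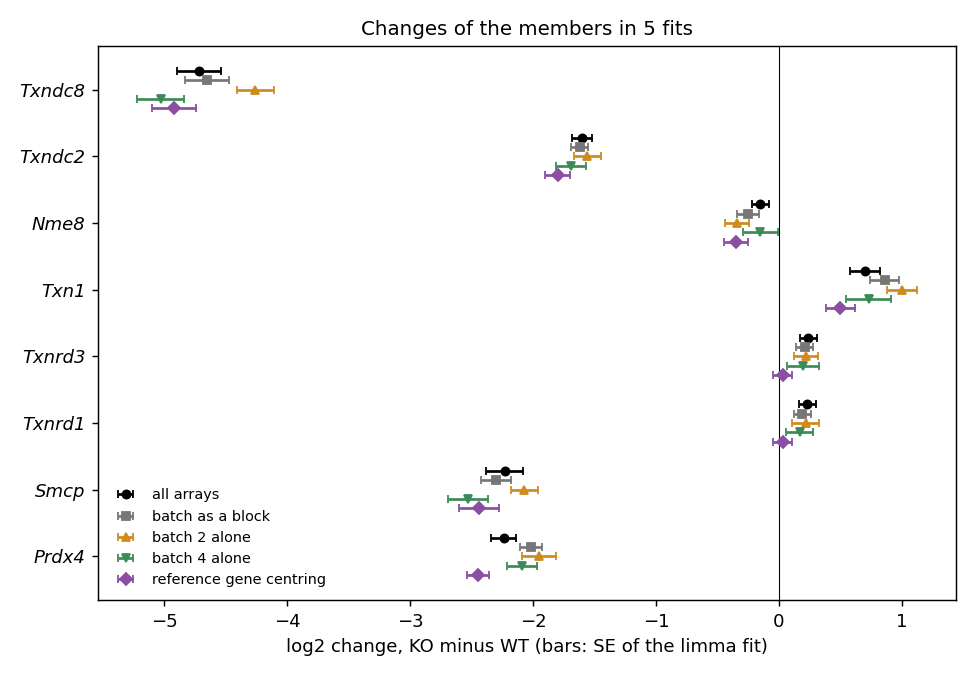
Log2 change of each member, KO minus WT, with the SE of the limma fit, over all 10 arrays, with batch as a block, in batch 2 alone, in batch 4 alone and with reference gene centring. Txndc8 stays between −5.03 and −4.26, and Txnrd3 and Txnrd1 lie at 0.03 with reference gene centring.

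For the 4 members that fell, the signal left in each KO array was taken as a percent of the WT mean. It was lowest for Txndc8, and the range of Smcp overlapped those of Prdx4 and Txndc2. Txndc8 kept 2.52% to 5.50%, with KO replicate 2 highest. Smcp kept 15.9% to 31.9%, and replicate 2 was again highest. Prdx4 kept 18.6% to 26.4%, with replicate 3 highest and replicate 2 lowest. Txndc2 kept 29.0% to 40.5%, with replicate 2 highest. Thus most signal was left in replicate 2 for 3 of the 4 members, and in replicate 2 or 3 for 4 of 4. The members were read on the same KO arrays, so these counts do not hold independent repeats. Earlier results of these data had already shown KO replicates 2 and 3 higher in genes that fell most. Without both of these arrays the changes were −5.04 for Txndc8, −1.70 for Txndc2, −2.47 for Smcp and −2.29 for Prdx4, and all were called; the KO arrays that remain are all of batch 4.

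**Figure D3:**
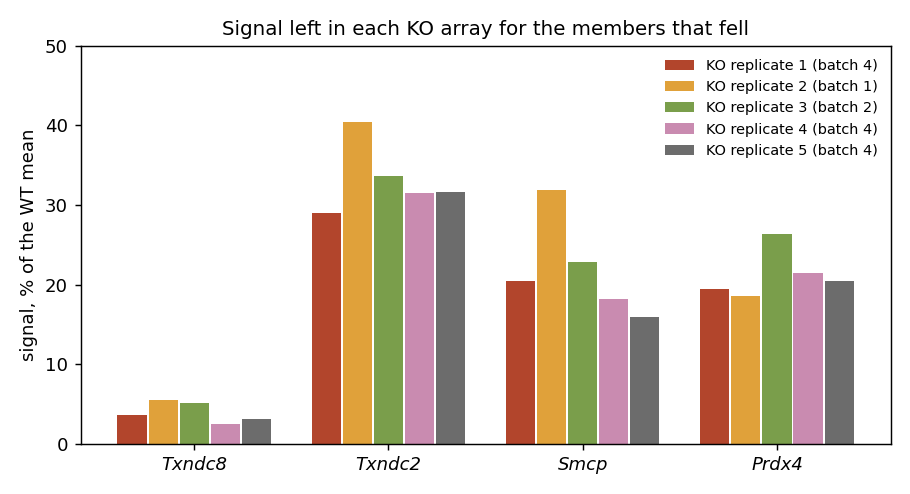
Signal of Txndc8, Txndc2, Smcp and Prdx4 in each of the 5 KO arrays, as a percent of the mean of the 5 WT arrays, with 1 bar per KO array and its batch in the legend. Txndc8 lies at 2.52% to 5.50% and Txndc2 at 29.0% to 40.5%.

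Members were next compared within arrays, as the log2 difference between a pair of genes in the same mouse. Because probes differ between genes, only the change of this difference between the genotypes was read. Of 8 planned pairs 6 could be computed, since both pairs with Gpx4 had no values. An exact permutation test over the 5 KO and 5 WT arrays was used (two-sided, smallest possible p = 0.00794, adjusted over the 6 pairs). Relative to Txn1, Txndc8 changed by −5.42 (95% interval −5.88 to −4.91), Txndc2 by −2.30 (−2.72 to −1.83) and Nme8 by −0.85 (−1.30 to −0.38). Txn1 itself rose by 0.70, while Nme8 alone changed by −0.15 and was not called. Txndc2 minus Txndc8 changed by 3.12 (2.72 to 3.59), so the 2 sperm thioredoxins that fell did not fall alike. Prdx4 changed by −2.77 (−2.95 to −2.61) relative to Prdx1, a cytosolic peroxiredoxin that was higher in KO testis. Each of these 5 differences was at the smallest p (exact p = 0.00794, adjusted p = 0.00952). For Txndc8 and Txndc2 against Txn1, and for Prdx4 against Prdx1, this outcome was fixed by the single-gene values. In these pairs the first gene lay lower in every KO array than in any WT array, and the second lay higher. Their p therefore adds nothing to the single-gene calls. Txnrd3 minus Txnrd1 changed by 0.00236 (−0.11 to 0.12; exact permutation p = 0.944), so these arrays showed no difference between the changes of the reductases and bound it by that interval.

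Related genes were then counted in lists that leave out the members. Over all features 12.4% were lower and 27.9% higher, the shares to set beside each list count. No list was tested as a set. Of 21 measured thioredoxin and peroxiredoxin genes 2 were lower and 12 higher, with a median of 0.27. Srxn1, the sulfiredoxin that repairs over-oxidised peroxiredoxins, fell by 0.77, while Prdx1 rose by 0.53 and Txnip, an inhibitor of thioredoxin, by 0.52. Of 18 glutathione and glutaredoxin genes 3 were lower and 9 higher, with a median of 0.24. Glrx2, a glutaredoxin of mitochondria that has a further form in mouse testis, changed by −2.32 (SE 0.10; limma, adjusted p = 2.6e-10). The glutathione peroxidase genes Gpx8 and Gpx6 rose by 0.85 and 0.84, and Gpx1, a cytosolic relative of Gpx4, by 0.39. The Gpx1 call was lost with reference gene centring and when any 1 of 8 of the 10 arrays was left out, all but KO replicate 2 and WT replicate 2. With reference gene centring the thioredoxin list gave 3 lower and 5 higher and the glutathione list 5 lower and 2 higher, so that fewer rises were called in both lists.

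The selenoprotein synthesis genes, on which Gpx4 and the reductases depend, gave 1 lower and 4 higher of 11, with a median of 0.17. Selenop, the plasma selenium carrier, rose by 0.76 and Pstk, a kinase in the making of selenocysteine, by 0.74, whereas Secisbp2, which binds selenoprotein mRNAs, fell by 0.32. Of 11 disulfide genes of the endoplasmic reticulum 1 was lower and 6 were higher (median 0.22), with Pdia5 at 0.46, Qsox1 at 0.31 and the testis form Pdilt at −0.38. Of 4 superoxide dismutase and catalase genes 1 was lower and 2 were higher (median 0.17), with Sod2 at 0.33, Cat at 0.26 and Sod1 at −0.27. With batch as a block 0 were lower and 1 was higher. Sod1 was not called without any 1 of KO replicates 2 and 4 and WT replicates 1, 2 and 3, nor Cat without any 1 of KO replicates 3, 4 and 5 and WT replicates 1, 2, 3 and 5. Of 8 relatives of Nme8 in the nucleoside diphosphate kinase family 0 were lower and 2 higher (median 0.01), Nme7 at 0.55 and Nme5 at 0.34. The 8 measured genes of the sperm mitochondrial sheath, the structure that Smcp covers, gave 3 lower and 4 higher (median 0.04). Spata19 (−5.10, SE 0.32), Tbc1d21 (−4.62, SE 0.22) and Septin4 (−3.11, SE 0.08) were the 3 lower genes, and the largest rise in the list was 0.43. With reference gene centring the selenoprotein synthesis genes gave 3 lower and 2 higher, the disulfide genes 2 lower and 1 higher, the superoxide dismutase and catalase genes 1 lower and 0 higher, the Nme8 relatives 2 lower and 1 higher and the sheath genes 4 lower and 1 higher.

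**Figure D4:**
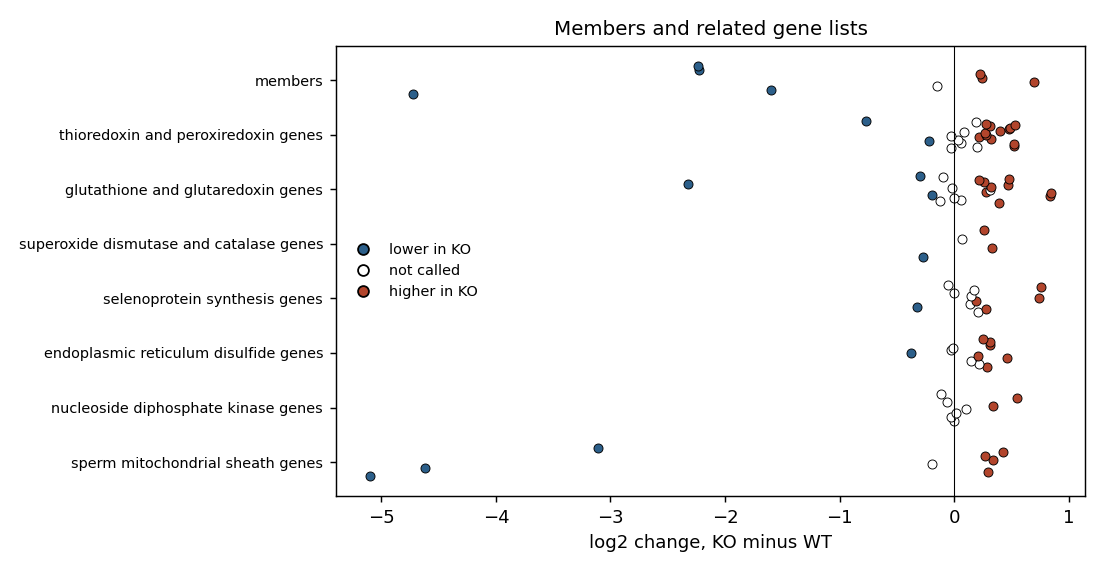
Log2 change, KO minus WT, of each measured gene, in 1 line per list, with filled points for genes called lower or higher and open points for genes not called. Outside the members most called genes lie between 0 and 1, while Glrx2 (−2.32) and 3 mitochondrial sheath genes (−5.10 to −3.11) lie far below 0.

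For the members that fell, the genes with the most similar profile over the 10 arrays were found by the root mean square difference of levels centred per gene, a measure set mainly by the size of the genotype difference. For Txndc8 they were Vmn2r-ps11, Spata31 and Gm136, at 0.09, 0.12 and 0.12. Plb1, Cdc42ep5 and Cep85l were nearest to Txndc2, at 0.08, 0.09 and 0.09. Smcp was nearest to Glrx2, 1700019M22Rik and Fam170b, at 0.15, 0.16 and 0.16. Ttc7, M1ap and Clip1 were nearest to Prdx4, at 0.12, 0.13 and 0.13.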

How the data were processed

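Per the labels, whole testis RNA of 5 KO and 5 WT mice was measured, 1 mouse per array. The authors processed the arrays with RMA in XPS, and the deposited values are log2 levels; the package version is not given in the sources used here. The table had 35557 rows, of which 9868 held no value on any array and 25689 were used as features. Features were named through the platform annotation and RefSeq (GRCm38.p6). The genotypes were compared with limma 3.58.1 in R 4.3.3 by a two-sided moderated test without covariate, as the study's methods name none. The Benjamini-Hochberg adjustment covered all features, and a call needed an adjusted p under 0.05. Pairs were tested in SciPy 1.17.1. The fit was tested on simulated data. The number of arrays limits the precision. Alternatives were other scalings, batch as a block or batches alone, other limma settings, filters and arrays left out. Genes named were the members, their pair relatives, Crem, the 3 largest called changes per list and the 3 genes most like each member called with a change of at least 1. The members and lists were chosen with earlier results of these data known.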

Additional observations from a re-analysis of the deposited data

Results flagged for a closer look

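Dixon's test (critical value 0.71) was run over 82 groups of 5 arrays from 41 genes. In 4 groups it found a lone array that stood apart from the other 4 of its genotype. Chance alone flags about 1 in 20 groups, a share close to the one found. None of the 4 flagged groups was of a member. Nme7 stood at 11.51 in KO replicate 4, with the other KO arrays at 11.25 to 11.31. In WT replicate 1 Nme7 stood at 10.70, with the other WT arrays at 10.78 to 10.81. Cep85l, near Txndc2 in profile, stood at 10.39 in KO replicate 2, against 9.84 to 9.98 in the other KO arrays. Fam170b, near Smcp in profile, stood at 9.67 in WT replicate 5, against 9.38 to 9.46 in the other WT arrays.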

How the results depend on the processing

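Over 22 alternatives Txndc8 (−5.04 to −4.26), Txndc2 (−1.80 to −1.55), Smcp (−2.53 to −2.07), Prdx4 (−2.45 to −1.95) and Txn1 (0.50 to 1.00) kept their direction and their call. With reference gene centring, Nme8 was −0.35 and called, Txnrd3 and Txnrd1 were both 0.03 and not called, and 1 member was called higher. In batch 2 alone Txnrd3 and Txnrd1 were both 0.22 and not called, in batch 4 alone they were 0.20 and 0.17 and not called, and with batch as a block Txnrd3 was 0.21 and not called; each batch alone left 1 member called higher, with a single KO or WT array whose spread was taken from the other group. A minimum log2 change of 1 left 0. Leaving out 1 array at a time gave −0.20 to −0.11 for Nme8, which was called without KO replicate 4. Txnrd3 minus Txnrd1, at 0.00236, turned to −0.00226 in batch 2 and ranged from −0.0358 to 0.0223 with 1 array left out. Features lower numbered 8249 with reference gene centring, 1881 in batch 2, 1933 in batch 4 and 792 with the minimum change, and features higher 2227, 2562, 2234 and 119. No paired analysis was possible because the labels give no replicate numbers that the genotypes share. The cause of these differences was not tested.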
